A study of Mus musculus with 12 samples.

Results

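CC chemokines are small secreted proteins with paired cysteines near their amino terminus, and they guide leukocytes that carry CC receptors toward injured tissue. A set of 8 of their genes is described here in the mouse brain after intracerebral hemorrhage (ICH): *Ccl2*, *Ccl3*, *Ccl4*, *Ccl5*, *Ccl6*, *Ccl7*, *Ccl9* and *Ccl12*. They were chosen by symbol, 8 of the 54833 genes in the table, and all 8 were among the 21495 genes that passed the filter on low counts. All 8 also passed that filter in the sham samples alone. RNA was sequenced from the perihematomal part of the caudate putamen of the injected side, 24 h after surgery. The animals were male wild-type C57BL/6 mice, young (8 to 10 weeks) or aged (20 to 22 months). ICH was induced with type IV collagenase injected into the striatum, and sham mice received saline by the same injection, so both groups carry a needle track. Sham surgery and ICH at each age made 4 groups of 3 samples, and each sample pooled the tissue of 2 or 3 mice.

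Most members can be grouped by receptor. CCL2, CCL7 and CCL12 are ligands of CCR2, the receptor that draws Ly6C-high monocytes out of the marrow and into inflamed tissue. CCL3 and CCL5 bind CCR1, and CCL4 is a close relative of CCL3 that attracts macrophages and T cells. CCL6 and CCL9 are rodent ligands of CCR1, made constitutively by many myeloid cells. In the injured brain, microglia, astrocytes, endothelial cells and incoming leukocytes can all make members of the family, and NF-κB drives transcription of several of them.

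All 8 genes lie on chromosome 11 (GRCm38.p6), in 2 blocks of CC ligand genes. *Ccl2* (ENSMUSG00000035385, 82035571 to 82037453), *Ccl7* (ENSMUSG00000035373, 82045712 to 82047525) and *Ccl12* (ENSMUSG00000035352, 82101845 to 82103400) are on the plus strand in a block of 270.1 kb that also holds *Ccl11*, *Ccl8* and *Ccl1*. *Ccl5* (ENSMUSG00000035042, 83525778 to 83530518), *Ccl9* (ENSMUSG00000019122, 83572919 to 83578636), *Ccl6* (ENSMUSG00000018927, 83587882 to 83593087) and *Ccl3* (ENSMUSG00000000982, 83647844 to 83649355) are on the minus strand and *Ccl4* (ENSMUSG00000018930, 83662584 to 83664683) on the plus strand of a block of 138.9 kb. No run of 100 bases of any member's transcripts occurred in the transcripts of another gene. *Ccl2* and *Ccl6* each overlap a gene on the opposite strand, with 0 exonic bases in common.

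Since most members moved together, the 250 bases before the start site are given for the 4 members with an entry in the RefSeq promoter table (GRCm38.p6), each written 5′ to 3′ on the strand of its gene. Capitals mark matches to any of 5 motifs searched on both strands: the TATA box TATAAA, AP-1 TGANTCA, C/EBP TTGCNNAA, STAT TTCNNNGAA and the NF-κB consensus. *Ccl2*, *Ccl4*, *Ccl5* and *Ccl7* are named only.
Ccl9, chr11:83578637-83578886, minus strand: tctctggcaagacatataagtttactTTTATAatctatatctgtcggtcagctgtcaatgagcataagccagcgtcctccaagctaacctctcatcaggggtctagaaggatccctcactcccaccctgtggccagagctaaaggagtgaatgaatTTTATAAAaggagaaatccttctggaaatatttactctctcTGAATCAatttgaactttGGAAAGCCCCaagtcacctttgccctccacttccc
Ccl6, chr11:83593088-83593337, minus strand: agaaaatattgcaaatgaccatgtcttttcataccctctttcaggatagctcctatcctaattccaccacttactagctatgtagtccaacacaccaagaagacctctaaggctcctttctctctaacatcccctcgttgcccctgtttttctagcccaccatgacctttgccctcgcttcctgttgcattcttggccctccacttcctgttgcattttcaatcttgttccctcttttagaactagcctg
Ccl3, chr11:83649379-83649628, minus strand: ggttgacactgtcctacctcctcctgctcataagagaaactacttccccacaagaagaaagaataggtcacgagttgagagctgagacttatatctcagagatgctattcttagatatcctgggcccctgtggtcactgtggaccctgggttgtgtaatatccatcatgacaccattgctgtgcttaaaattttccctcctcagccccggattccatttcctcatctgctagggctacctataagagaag
Ccl12, chr11:82101595-82101844, plus strand: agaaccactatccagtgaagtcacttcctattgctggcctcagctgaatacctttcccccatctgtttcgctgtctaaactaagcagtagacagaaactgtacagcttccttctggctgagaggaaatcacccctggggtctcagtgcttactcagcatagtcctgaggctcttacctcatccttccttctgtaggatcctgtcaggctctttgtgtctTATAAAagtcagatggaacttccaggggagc

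*Ccl9* held an AP-1 match at position -53 from the start site, an NF-κB match at position -35 and TATA box matches at positions -224, -94 and -92, of which the last pair overlap. *Ccl12* held a TATA box match at position -31, and the windows of *Ccl3* and *Ccl6* held no match to these letters. Of 32817 promoter windows of the same length, 12.4% held the TATA box letters, 6.75% the AP-1, 9.57% the C/EBP, 7.01% the STAT and 7.25% the NF-κB letters. These matches describe the sequence only.

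Total counts ranged from 28410896 to 37785160 per sample, and levels below are CPM (counts divided by the library total and multiplied up to a common size), scaled by TMM factors of 0.95 to 1.04. The 9 striatal neuron genes were above 0 in every sample. They summed to 1774–3024 CPM in young sham and 513–1725 in young ICH, and to 1513–2640 CPM in aged sham and 325–1912 in aged ICH. All 9 had a log2FC below 0 after ICH at both ages (medians -0.95 and -1.13), with 0 called by edgeR, and their part in the members' levels was not tested. Choroid plexus genes (*Ttr* and 5 others), which do not belong to the caudate putamen, ranged from 9.62 to 4054 CPM between samples and were highest in young ICH replicate 3 and aged ICH replicates 1 and 2. One library stood apart for the members: aged sham replicate 2 had the lowest level of its group for 8 of 8 members, whereas over all genes tested it was lowest for 35.6%. Aged ICH replicate 2 was the lowest of its group for 7 of 8 members and for 40.1% of all genes tested. Young sham replicate 3 was the highest of its group for 7 members and young ICH replicate 3 for 6, and the share of all genes was not computed for the highest samples.

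**Figure D1:**
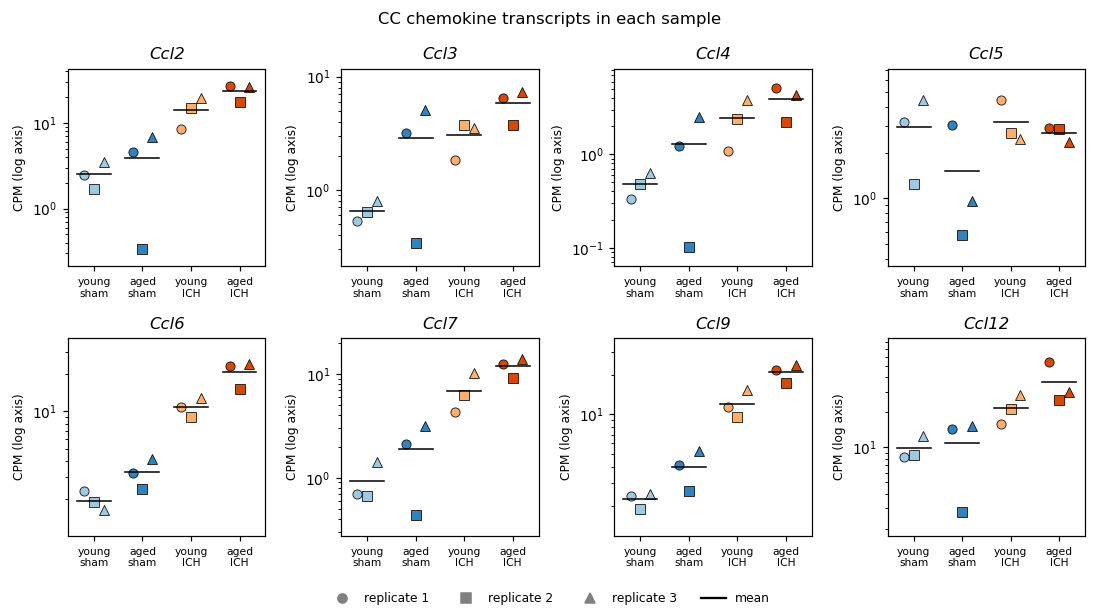
CPM of each CC chemokine gene (log axis) in the 3 samples of each group; symbols mark the replicate and bars the mean. Aged sham replicate 2 (square) is the lowest aged sham sample in all 8 panels, and the ranges of young sham and young ICH are apart for every gene but *Ccl5*.

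ICH raised CC chemokine transcripts at both ages. In young ICH vs. young sham, 5 of 8 members were called higher (*Ccl2*, *Ccl3*, *Ccl6*, *Ccl7* and *Ccl9*; edgeR quasi-likelihood test, Benjamini-Hochberg adjusted *P* under 0.05), where 9.89% of all genes tested were called higher. In aged ICH vs. aged sham, 5 of 8 were called higher (*Ccl2*, *Ccl6*, *Ccl7*, *Ccl9* and *Ccl12*), where 7% of all genes were. Under the DEG rule of the study (FC above 1.5 with unadjusted *P* under 0.05), 7 members met the rule in young mice and 6 in aged mice, against 8.66% and 7.24% of all genes. The median log2FC of the members was 2.38 in young and 2.07 in aged mice, and that of all genes was 0.02 and 0.00. Every value after ICH lay above every sham value for 7 members in young mice, as it did for 18.5% of all genes. In aged mice the same held for 5 members and for 17.8% of all genes. In bulk tissue, more cells of a type and more RNA per cell cannot be told apart.

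Among the CCR2 ligands, *Ccl2*, the main monocyte attractant of the family, was at 2.49, 1.71 and 3.46 CPM in young sham and at 8.56, 14.8 and 19.4 CPM in young ICH. The ranges did not overlap, and the rise was 5.58-fold (log2FC 2.48 ± 0.65 SE, n = 3 per group, adjusted *P* = 0.0216 by edgeR). In aged mice *Ccl2* was at 4.57, 0.337 and 6.83 CPM after sham surgery and at 27.0, 17.5 and 26.6 CPM after ICH. Again no sham value reached the ICH values, with a log2FC of 2.59 ± 0.63 (adjusted *P* = 0.0222 by edgeR). The young call was lost without young ICH replicate 3, young sham replicate 1 or young sham replicate 2 (adjusted *P* = 0.0614, 0.0599 and 0.0902), and the aged call without aged ICH replicate 1, aged ICH replicate 3 or aged sham replicate 1 (0.0784, 0.0633 and 0.0689) and in a fit of the aged samples alone (0.0506). The log2FC stayed between 2.05 and 3.27 in aged mice and between 2.19 and 2.75 in young mice over 17 alternatives each.

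*Ccl7*, which attracts monocytes and lies next to *Ccl2*, rose as well. It was at 0.691, 0.666 and 1.42 CPM in young sham and 4.3, 6.32 and 10.3 CPM in young ICH, a log2FC of 2.92 ± 0.56 (adjusted *P* = 0.0055 by edgeR). In aged mice it was at 2.12, 0.438 and 3.17 CPM in sham and 12.7, 9.28 and 14.0 CPM in ICH, a log2FC of 2.64 ± 0.53 (adjusted *P* = 0.0104 by edgeR). The groups did not overlap at either age, and both calls held in all 17 alternatives.

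*Ccl12*, a ligand found in rodents and not in humans, started from a higher level. Its young sham samples were at 8.26, 8.56 and 12.5 CPM and its young ICH samples at 15.9, 21.4 and 28.4 CPM. Those ranges did not overlap, yet the log2FC of 1.16 ± 0.49 was not called (adjusted *P* = 0.119 by edgeR). In aged mice the values were 14.4, 2.77 and 15.3 CPM after sham surgery and 54.3, 25.7 and 29.9 CPM after ICH, with the highest value in aged ICH replicate 1. This log2FC, 1.76 ± 0.49, was called (adjusted *P* = 0.0372 by edgeR). The aged call was lost without aged ICH replicate 1 (log2FC 1.36, adjusted *P* = 0.157) and without aged ICH replicate 3, aged sham replicate 1 or young sham replicate 2 (0.0678, 0.0698 and 0.0524), and in a fit of the aged samples alone (0.0806). The young comparison passed the threshold without aged sham replicate 2 (adjusted *P* = 0.0215) and in a fit of the young samples alone (0.0246).

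*Ccl3*, *Ccl4* and *Ccl5* were less uniform. *Ccl3*, which attracts monocytes and neutrophils, was at 0.525, 0.634 and 0.792 CPM in young sham and 1.83, 3.73 and 3.53 CPM in young ICH. The ranges were apart, with a log2FC of 2.22 ± 0.69 (adjusted *P* = 0.0436 by edgeR). That call was lost in 8 of the 12 fits that left out 1 library, at an adjusted *P* of 0.0565 to 0.128: without any one of the young sham samples, young ICH replicate 2 or 3, aged ICH replicate 1 or 3, or aged sham replicate 1. In aged mice *Ccl3* was already at 3.18 and 5.09 CPM in aged sham replicates 1 and 3, against 0.337 CPM in replicate 2, and at 6.50, 3.72 and 7.35 CPM after ICH. The aged groups overlapped, and the log2FC of 1.02 ± 0.60 was not called (adjusted *P* = 0.289 by edgeR). Without aged sham replicate 2 it was 0.50 ± 0.36.

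*Ccl4*, the neighbor of *Ccl3*, held 3 to 185 reads per sample, with the lowest single count of the members. It was at 0.332, 0.476 and 0.627 CPM in young sham and 1.07, 2.36 and 3.81 CPM in young ICH. The log2FC of 2.34 ± 0.77 missed the threshold (adjusted *P* = 0.0531 by edgeR), although the ranges did not overlap, and it passed in 7 of the 17 alternatives, among them a fit of the young samples alone (0.0257) and those without aged sham replicate 2 (0.0128), aged sham replicate 3 (0.0396) or young ICH replicate 1 (0.0419). In aged mice it was at 1.22, 0.101 and 2.51 CPM in sham and 5.16, 2.23 and 4.34 CPM in ICH. One aged sham value exceeded the lowest ICH value, and the log2FC was 1.6 ± 0.68 (adjusted *P* = 0.148 by edgeR).

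*Ccl5*, a product of T cells and NK cells as well as glia, did not follow the other members. Its values were 3.18, 1.24 and 4.45 CPM in young sham, 4.44, 2.70 and 2.46 CPM in young ICH, 3.05, 0.573 and 0.958 CPM in aged sham and 2.90, 2.88 and 2.36 CPM in aged ICH. All 4 groups overlapped with their counterpart, with a log2FC of 0.12 ± 0.53 in young mice (adjusted *P* = 0.904) and 0.83 ± 0.55 in aged mice (adjusted *P* = 0.352, both by edgeR). The 7 T cell genes summed to 27.8–41.2 CPM in young sham, 15–28.1 in young ICH, 25.1–35.1 in aged sham and 9.42–24.2 CPM in aged ICH. The sum was mostly *Cd4* and *Trbc2*, and the CD3 subunit genes ran the other way. *Cd3e* was at 0.063–0.56 CPM in young sham and 0.50–2.15 CPM in young ICH, with overlapping ranges and a log2FC of 2.10 ± 0.67 (adjusted *P* = 0.0473 by edgeR). Both *Cd3e* and *Cd3g* passed the low-count filter only with the ICH samples. The highest young ICH reads of *Cd3e* (74), *Cd3g* (65) and *Cd8a* (113) were all in replicate 1, against lowest values of 15, 6 and 9. *Cd3e* was the 1 T cell gene of 6 tested that was called in young mice, and none was called in aged mice. The median log2FC of the 6, among them *Cd3e* and *Cd3g*, was 1.41 in young and 0.58 in aged mice. The 5 NK cell genes stayed between 0 and 2.09 CPM in all samples, and *Ncr1*, which defines NK cells, was at 0 to 4 reads.

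*Ccl6* and *Ccl9*, both CCR1 ligands, gave the firmest changes. *Ccl6* was at 2.29, 1.87 and 1.62 CPM in young sham and 10.8, 9.02 and 12.7 CPM in young ICH, a 5.61-fold rise (log2FC 2.49 ± 0.25, adjusted *P* = 0.000582 by edgeR). In aged mice it was at 3.21, 2.39 and 4.19 CPM in sham and 23.0, 15.2 and 24.1 CPM in ICH, a 6.34-fold rise (log2FC 2.67 ± 0.24, adjusted *P* = 0.000744 by edgeR). *Ccl6* ranked 15 by *P* among the 21495 genes in young mice and 2 in aged mice.

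*Ccl9* was at 2.40, 1.90 and 2.48 CPM in young sham and 11.4, 9.62 and 15.2 CPM in young ICH (log2FC 2.41 ± 0.25, adjusted *P* = 0.000742 by edgeR). Its aged sham samples were at 4.10, 2.63 and 5.24 CPM and its aged ICH samples at 21.6, 17.3 and 23.7 CPM (log2FC 2.38 ± 0.24, adjusted *P* = 0.0015 by edgeR). The ranges of sham and ICH were apart at both ages for both genes, and all 4 calls held in the 17 alternatives. The standard errors of *Ccl6* and *Ccl9* were at most 0.25, and those of the other members in these comparisons were 0.49 to 0.77.

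**Figure D2:**
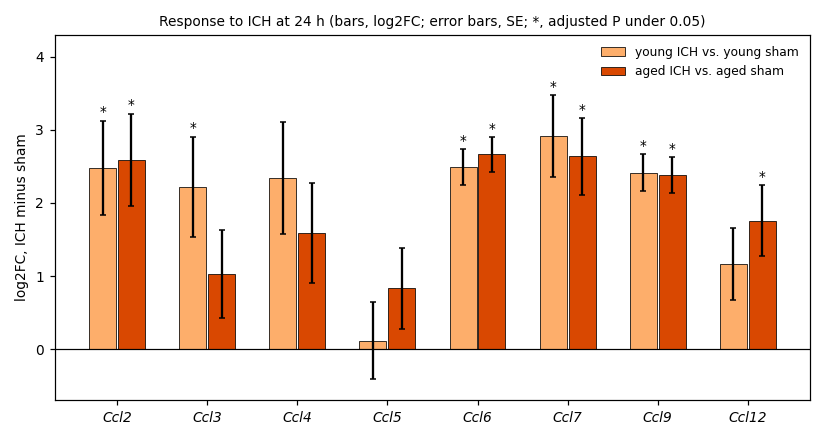
log2FC of ICH over sham (bars) with its SE (error bars) for each member in young and aged mice, from one fit of all 12 samples; asterisks mark an adjusted *P* under 0.05. *Ccl2*, *Ccl6*, *Ccl7* and *Ccl9* were called at both ages, and *Ccl5* and *Ccl4* at neither.

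Genes of several leukocyte types rose after ICH, as most members did. Of the neutrophil genes, 6 of the 8 tested were called higher in young ICH and 5 in aged ICH, although *Retnlg*, *Mmp8*, *Ngp* and *Ltf* passed the filter only with the ICH samples. Their summed level was 10.2–12.6 CPM in young sham, 19.8–36.2 in young ICH, 14.6–26.0 in aged sham and 37.0–52.9 CPM in aged ICH, and *S100a8*, *S100a9* and *Mmp8* were above 0 in every sample. Much of that sum was *Csf3r*, at 8.81–14.8 CPM over the sham samples and 12.7–22.7 CPM over the ICH samples. Monocyte genes, 3 of 6 called higher at each age, summed to 28.6–34.6 CPM over the sham samples and 41.2–52.2 CPM over the ICH samples, with *Chil3* at 0.276–2.87 CPM in sham and 4.07–14.3 CPM after ICH. Most of the sham sum was *Vcan*, at 24.7–32.9 CPM in sham and 19.9–28.8 CPM after ICH. *Ly6c2* had overlapping ranges, at 0.387–2.77 CPM in sham and 1.10–3.63 CPM after ICH. Border macrophage genes, 4 of 5 called higher in young and 3 in aged mice, summed to 9.04–20.1 CPM in sham and 32.0–39.8 CPM in ICH. *Cd163* went the other way in aged mice, at 4.28–6.58 CPM in sham and 1.84–4.54 CPM in ICH. Microglial genes summed to 288–354 CPM with overlapping ranges in the 4 groups. Of 8, 0 were called higher and 2 lower at each age: *P2ry12*, a purinergic receptor of homeostatic microglia, fell by 0.70 ± 0.14 in young and by 0.85 ± 0.14 in aged mice on the log2 scale, and *Siglech* by 0.80 ± 0.20 and 1.11 ± 0.20. Astrocyte genes summed to 1495–2050 CPM in sham and 2634–3400 CPM in ICH, and much of the sum was *Gfap* (450–1028 CPM in sham and 1481–2105 CPM after ICH). Of 5, 3 were called higher in young ICH, and in aged ICH 2 were called higher and 1, the gap junction gene *Gja1*, lower (log2FC -0.51 ± 0.14). Of 5 endothelial genes, 4 were called higher in young and 3 in aged mice, with sums of 163–235 CPM in sham and 248–300 CPM after ICH. Red blood cell genes, 3 of 5 called higher in young mice and 0 in aged mice, summed to 5.20–22.4 CPM in young sham, 29.0–120.8 in young ICH, 27.8–39.5 in aged sham and 24.3–82.0 CPM in aged ICH. The part of these cell types in the members' levels was not tested. In aged sham replicate 2, where the members were lowest, the neutrophil genes (16.1 CPM) lay between those of aged sham replicates 1 and 3, and the monocyte genes (28.6 CPM) were the lowest of all 12 samples. Aged ICH replicate 2, the lowest of its group for 7 of 8 members, had the highest monocyte sum of all 12 samples (52.2 CPM). Its neutrophil genes (47.0 CPM) lay between those of aged ICH replicates 1 and 3.

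Levels of the members can be compared with each other per transcript length, as the FPKM values deposited by the authors. *Ccl12* was the most abundant member in every sample, with 61.5%–70.0% of the members' summed FPKM in young sham samples, 52.8%–58.6% in aged sham samples, 48.7%–49.7% in young ICH samples and 40.8%–56.2% in aged ICH samples. *Ccl2* was at 2.15 ± 0.75 FPKM (SD, n = 3) in young sham and 12.8 ± 5.02 FPKM in young ICH, and at 3.40 ± 2.89 and 21.6 ± 4.83 FPKM in aged sham and aged ICH. Its share went from 6.60%–8.74% in young sham to 12.3%–16.2% in young ICH. *Ccl7* followed with 8.89 ± 4.0 FPKM in young ICH and 15.5 ± 3.12 FPKM in aged ICH. *Ccl5* made up 5.65%–13.2% of the sum in young sham and 1.68%–2.99% in aged ICH, where it was the least abundant member in 3 of 3 samples. *Ccl12* alone stood apart in young ICH, at 30.1 FPKM or more. Below it, in the order *Ccl2*, *Ccl7*, *Ccl6* (6.17 ± 1.13), *Ccl9* (4.05 ± 1.02), *Ccl3* (4.03 ± 1.39), *Ccl4* (3.74 ± 2.17) and *Ccl5* (3.39 ± 1.13 FPKM), the range of each member overlapped with that of the next.

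**Figure D3:**
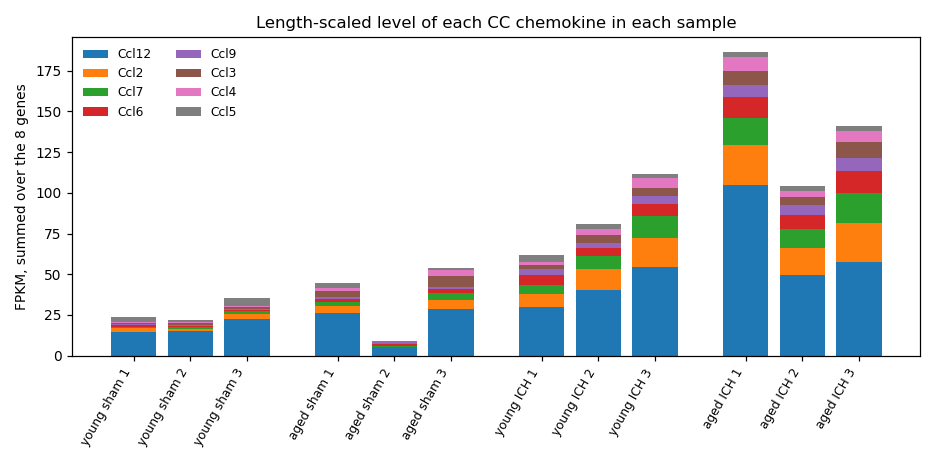
FPKM of the 8 members stacked by sample. *Ccl12* is the largest part of every bar, the sums run from 21.7 to 35.1 (young sham), 61.9 to 111.6 (young ICH) and 104.2 to 186.3 (aged ICH), and aged sham replicate 2 has the smallest sum, 9.22.

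The difference between ages was then compared within each surgery. The aged sham samples are shared by this comparison and by aged ICH vs. aged sham, so the results are not independent. In aged sham vs. young sham, 0 of 8 members were called by edgeR, 0 by DESeq2 and 3 at an unadjusted *P* under 0.05, and 0.0884% of all genes were called higher. The members *Ccl3*, *Ccl6* and *Ccl9* met the DEG rule of the study, as did 2.82% of all genes in the higher direction. In aged ICH vs. young ICH, edgeR called 0 members, and 0.0372% of all genes were called higher. Under the DEG rule, 2 members (*Ccl6* and *Ccl9*) and 2.21% of all genes were higher. Of the members, DESeq2 called *Ccl6* alone (adjusted *P* = 0.00968), and over all 21495 genes it called 198, of which 90 were higher. The log2FC was positive for 7 of 8 members in each comparison, *Ccl5* being the exception, with medians of 0.79 after sham surgery and 0.77 after ICH and of 0.01 and 0.00 over all genes.

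*Ccl6* and *Ccl9* were higher in aged mice in every sample of both surgeries. All 3 aged sham values of *Ccl6* (2.39 to 4.19 CPM) exceeded all 3 young sham values (1.62 to 2.29 CPM), and the aged ICH values (15.2 to 24.1 CPM) exceeded those of young ICH (9.02 to 12.7 CPM). Its log2FC was 0.76 ± 0.25 in sham (adjusted *P* = 0.271) and 0.94 ± 0.22 in ICH (adjusted *P* = 0.196, both by edgeR). For *Ccl9* the differences were 0.82 ± 0.25 (adjusted *P* = 0.247) and 0.79 ± 0.23 (adjusted *P* = 0.295, both by edgeR). These 2 were the only members without overlap between ages, in both surgeries, as were 9.81% of all genes in sham and 6.9% in ICH with the aged samples higher. Averaged over both surgeries, a comparison added after the data had been seen, *Ccl6* was 1.80-fold (log2FC 0.85 ± 0.17, adjusted *P* = 0.0364) and *Ccl9* 1.75-fold higher (0.81 ± 0.17, adjusted *P* = 0.0468, both by edgeR) in aged mice, where 0.772% of all genes were called higher. With 1 library left out, the log2FC of *Ccl6* stayed between 0.74 and 0.94 and that of *Ccl9* between 0.68 and 0.92. The *Ccl6* call was then lost in 8 of 12 fits (adjusted *P* = 0.0601 to 0.0996) and the *Ccl9* call in 9 of 12 (0.0719 to 0.119). Both calls were kept without aged sham replicate 2, aged ICH replicate 2 or young ICH replicate 3, and *Ccl6* also without young sham replicate 1.

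*Ccl3* had the largest difference between sham groups. Aged sham replicates 1 and 3, at 3.18 and 5.09 CPM, were above every young sham value (0.525 to 0.792 CPM), whereas replicate 2 was below them at 0.337 CPM. The log2FC was 2.15 ± 0.69 (adjusted *P* = 0.26 by edgeR) and, without aged sham replicate 2, 2.67 ± 0.39 (adjusted *P* = 0.0335). In the same fit without that library, 6 of 8 members met the DEG rule of the study, all but *Ccl5* and *Ccl12*, against 3 with all samples. That library was singled out as the lowest aged sham sample for 8 of 8 members. The larger estimates without it therefore follow from the choice and are no separate evidence of an age difference. The share of all genes that met the rule in that fit was not computed. After ICH the *Ccl3* difference between ages was 0.96 ± 0.60 with overlapping ranges (adjusted *P* = 0.653 by edgeR). *Ccl5* was the one member with a lower estimate in aged mice, -0.96 ± 0.55 in sham (adjusted *P* = 0.506) and -0.24 ± 0.53 in ICH (adjusted *P* = 0.923, both by edgeR). Of 8 neutrophil genes, 0 were called between ages by edgeR in either surgery. As higher in aged mice, 6 met the DEG rule in sham and 4 in ICH, against 2.82% and 2.21% of all genes. *Retnlg*, *Mmp8*, *Ngp* and *Ltf* passed the low-count filter only with the ICH samples. In young ICH, *Ngp* held 5 to 11 reads and *Ltf* 3 to 4, against 20 to 49 and 15 to 44 in aged ICH. The part of the neutrophil genes in the members' differences was not tested.

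**Figure D4:**
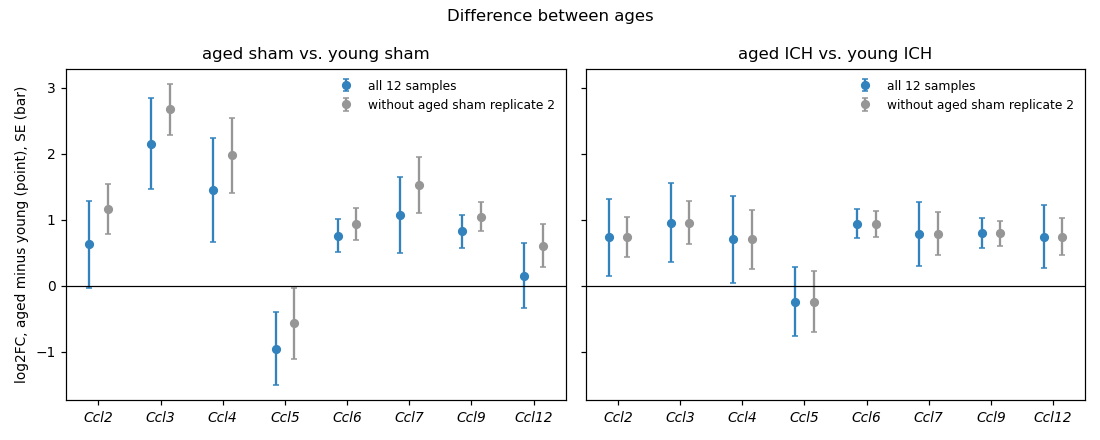
log2FC of aged over young mice (points) with its SE (bars), after sham surgery and after ICH, from all 12 samples and from 11 samples without aged sham replicate 2. Leaving out that library, the lowest aged sham sample for each member, raises every sham estimate, for *Ccl3* from 2.15 to 2.67, and narrows the errors.

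Whether the response to ICH differed with age was tested as the interaction of age and surgery. By edgeR 0 of 8 members were called, 0 had an unadjusted *P* under 0.05, and DESeq2 called 0 members. The share of all genes called higher was 0%. The estimates were smaller in aged mice for *Ccl3* (-1.19 ± 0.91), *Ccl4* (-0.74 ± 1.02), *Ccl7* (-0.28 ± 0.74) and *Ccl9* (-0.03 ± 0.33). They were larger in aged mice for *Ccl5* (0.71 ± 0.76), *Ccl12* (0.59 ± 0.68), *Ccl6* (0.18 ± 0.33) and *Ccl2* (0.11 ± 0.88). The estimates of *Ccl2*, *Ccl4*, *Ccl5*, *Ccl6*, *Ccl7*, *Ccl9* and *Ccl12* were smaller than their standard errors, and that of *Ccl3* was not. Over 16 alternatives 0 members were called, and *Ccl3* and *Ccl5* met the DEG rule of the study in 1 alternative each.

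Of 12 CC receptor genes 7 were tested, and receptors of these ligands rose as well. *Ccr1*, the receptor of CCL3, CCL5, CCL6 and CCL9, was at 0.884, 1.02 and 2.11 CPM in young sham and 6.01, 7.39 and 11 CPM in young ICH (log2FC 2.61 ± 0.54, adjusted *P* = 0.00769 by edgeR). In aged mice *Ccr1* was at 2.32, 0.405 and 3.32 CPM in sham and 11.6, 9.48 and 13.6 CPM in ICH (2.51 ± 0.52, adjusted *P* = 0.0125 by edgeR). Like the members, it was lowest in aged sham replicate 2. *Ccr2*, which marks inflammatory monocytes, rose by 1.94 ± 0.52 in young and 1.82 ± 0.52 in aged mice (adjusted *P* = 0.0249 and 0.0395 by edgeR). *Ccrl2*, which presents chemerin rather than signaling, rose by 1.14 ± 0.36 in young mice (adjusted *P* = 0.0444), and its aged estimate was 1.03 ± 0.34 (adjusted *P* = 0.0669, both by edgeR). *Ccr1*, *Ccr2* and *Ccrl2* were not called between ages by edgeR.

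Of the other 13 CC ligand genes 7 were tested, and 1 of them was called. *Ccl11*, an eosinophil attractant in the block of *Ccl2*, rose by 1.64 ± 0.48 in young and 2.20 ± 0.54 in aged mice (adjusted *P* = 0.034 and 0.0227 by edgeR), at only 3 to 42 reads per sample. Its sham samples held 3 to 9 reads, and it passed the low-count filter only with the ICH samples. Of the 3 atypical receptors, which take up chemokines without signaling to the cell, none was called by edgeR at either age, and *Ackr2* had an unadjusted *P* of 0.0183 in aged mice (log2FC 0.58 ± 0.21, adjusted *P* = 0.0936). Among inducing cytokines and NF-κB genes, 6 of 12 tested were called higher at both ages. *Il6*, which like *Cxcl2* below passed the filter only with the ICH samples, rose by 2.50 ± 0.49 and 2.97 ± 0.44, and *Nfkbiz*, an NF-κB cofactor, by 1.32 ± 0.19 and 1.24 ± 0.18. *Nfkbia*, the inhibitor that NF-κB itself induces, rose by 0.95 ± 0.12 and 0.84 ± 0.12. *Nfkb1*, *Nfkb2* and *Rela* were the others. In the remaining chemokine families, 6 of 13 tested genes were called higher and 1 lower in young ICH, and 5 higher and 2 lower in aged ICH. Of the 13, *Cxcl2*, *Cxcl3*, *Cxcl9* and *Ppbp* passed the low-count filter only with the ICH samples. The neutrophil attractants *Cxcl1* (2.71 ± 0.74 and 2.61 ± 0.71) and *Cxcl2* (4.01 ± 0.94 and 3.38 ± 0.80) were among those higher at both ages. *Cx3cl1*, a neuronal chemokine, was lower at both (-0.73 ± 0.11 and -0.61 ± 0.11).

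Protein-coding genes out to 300 kb beyond the blocks gave the chromosomal context. Around the block of *Ccl2*, 3 of 4 neighbors were tested and 0 were called in any of the 4 comparisons between groups by edgeR, with log2FC after ICH from -0.30 to 0.21 in young mice. Around the block of *Ccl3*, 14 of 17 neighbors were tested, with 1 called higher and 2 lower at each age. *Wfdc17*, which encodes a small secreted protein of activated macrophages, lies at 83703991 to 83706268, beyond *Ccl4*. It rose by 2.19 ± 0.39 in young and 2.15 ± 0.36 in aged mice (adjusted *P* = 0.00406 and 0.00617 by edgeR). *Ap2b1*, a subunit of a clathrin adaptor, was lower by a log2FC of -0.52 ± 0.07 and -0.40 ± 0.07, and *Synrg*, another adaptor-binding protein gene, by -0.29 ± 0.07 and -0.33 ± 0.07. The median over the tested neighbors of the *Ccl3* block was -0.01 in young and -0.02 in aged mice.

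**Figure D5:**
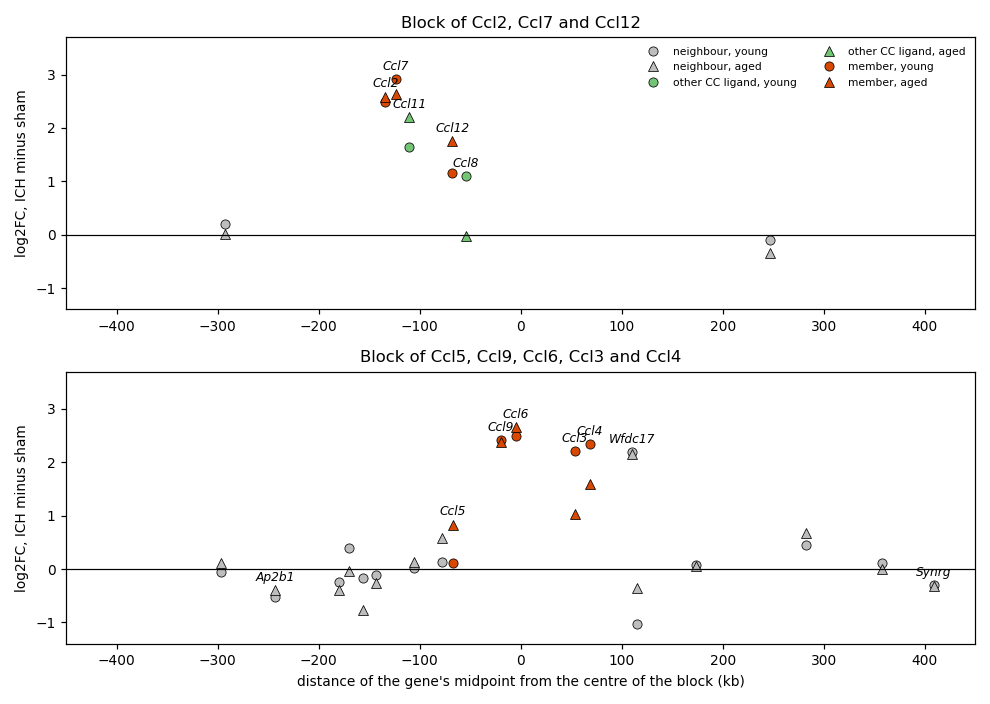
log2FC of ICH over sham against the distance of each gene's midpoint from the centre of its block (kb), for members, other CC ligands and protein-coding neighbors in young mice (circles) and aged mice (triangles). Members other than *Ccl5* lie above 1, while the neighbors apart from *Wfdc17* lie between -1.02 and 0.68; *Asic2*, a long gene with its midpoint 746 kb from the centre of the *Ccl2* block (log2FC -0.30 and -0.34), falls outside the axis.

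The 8 genes outside the list whose log2 CPM most resembled the members' mean standardized level over the 12 samples were *Ifi207*, *Ccr1*, *Gbp3*, *Gbp2*, *Myd88*, *Cd44*, *Lyn* and *Bcl3*, with Pearson's r from 0.982 to 0.991. The 12 points include sham and ICH samples, so that any gene that rose with ICH scores high. After the group means were taken out the values were 0.935 to 0.981, and aged sham replicate 2 was among the points. *Ifi207*, an interferon-inducible gene, was at 2.22–3.30 CPM in young sham, 6.65–11.8 in young ICH, 0.776–5.30 in aged sham and 11–13.7 CPM in aged ICH. *Cd44*, a hyaluronan receptor, was at 10.3–16.5, 64.5–100.8, 5.90–40.0 and 80.4–119.4 CPM in the same order.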

How the data were processed

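Raw counts and FPKM for 54833 genes in 12 samples were deposited by the authors, who aligned reads with HISAT2 to GRCm38.p6 and counted them with featureCounts. Libraries were made with the NEBNext Ultra RNA kit, and how counting treated strand was not given in the sources used here. The deposited counts were tested with edgeR 4.0.16 in R 4.3.3 (TMM, filterByExpr with a minimum count of 10, quasi-likelihood test, all 12 samples in 1 fit of 4 groups). Genes were called at a Benjamini-Hochberg adjusted *P* under 0.05 over the 21495 genes tested, and SE is the log2FC divided by the square root of its F statistic. The FPKM values deposited by the authors were used only to compare levels between genes. *P*-values measure the spread between samples that pool several mice. Log2 CPM used a prior count of 2.

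The alternatives were RLE scaling, no filter, DESeq2 1.42.0 on the same genes, only the groups compared, the replicate number as a block, each library left out in turn, and the DEG rule of the study (FC above 1.5 or below 0.67 with unadjusted *P* under 0.05). The mean age difference was added after seeing the data. The fits were tested on simulated data. The members and the lists of receptors, inducers, chemokines and cell type markers were chosen with earlier results of these data known. Named were the 8 members, called genes of these lists and some that were not called, the 8 genes most like the members, and called protein-coding neighbors within 300 kb. A result of the receptor list, with its count of calls, is not reported here. Marker genes are given as the range of their summed CPM. B cell genes were at 0.433–1.05 CPM over all samples, and 0 of 1 tested was called. No column was left unassigned to a sample. No group had the 4 samples that a test for a single distant sample needs.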

Additional observations from a re-analysis of the deposited data

How the results depend on the processing

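Calls of *Ccl6*, *Ccl7* and *Ccl9* in both comparisons of ICH with sham held in 17 of 17 alternatives, and RLE normalization changed no member's call. The cause of the changes that follow was not tested. Under the DEG rule of the study, the members that met it numbered 3 in aged sham vs. young sham, 2 in aged ICH vs. young ICH and 4 in the mean age difference, while the counts over all genes became 2612 in young ICH vs. young sham, 799 and 756 in the 2 age comparisons, 336 for the interaction and 764 for the mean age difference. With no filter on low counts, all genes called numbered 77 (aged sham vs. young sham), 61 (aged ICH vs. young ICH) and 415 (mean age difference). DESeq2 called 294, 198 and 1142 genes in these comparisons, 1 for the interaction, and 1 member (*Ccl6*) in aged ICH vs. young ICH. With only the groups compared in the fit, 7 members were called in young ICH vs. young sham and 3 in aged ICH vs. aged sham, each in place of 5, and over all genes 2442 were called in young ICH vs. young sham, 10 in aged sham vs. young sham and 3 in aged ICH vs. young ICH.

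The replicate numbers did not pair the samples: the correlation of deviations from group means was -0.45 to 0.23 for samples with the same number and -0.37 to 0.41 for others. With the replicate number as a block, *Ccl4* in young mice was called as well (adjusted *P* = 0.0489), the interaction of *Ccl9* became 0.018, and all genes called numbered 12 in aged sham vs. young sham and 127 in the mean age difference.

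With 1 library left out at a time, the members called ranged from 3 to 7 in young ICH vs. young sham (3 without young ICH replicate 3, young sham replicate 1 or young sham replicate 2, and 7 without aged sham replicate 2). They ranged from 3 to 5 in aged ICH vs. aged sham (3 without aged ICH replicate 1, aged ICH replicate 3 or aged sham replicate 1), from 0 to 1 in aged sham vs. young sham and from 0 to 3 in the mean age difference. All genes called ranged from 1858 to 4225 and from 679 to 3327 in the comparisons of ICH with sham, from 6 to 28 and from 4 to 19 in the age comparisons, and from 59 to 652 in the mean age difference. Uncalled estimates that changed sign were *Ccl5* in young ICH vs. young sham (-0.25 to 0.53) and in aged ICH vs. young ICH (-0.40 to 0.074), and *Ccl2* (-0.053 to 1.16) and *Ccl12* (-0.18 to 0.60) in aged sham vs. young sham. Among interactions they were *Ccl2* (-0.43 to 0.79), *Ccl4* (-1.28 to 0.21), *Ccl6* (-0.00077 to 0.40), *Ccl7* (-0.74 to 0.31) and *Ccl9* (-0.26 to 0.22). The extremes of these interactions came without aged sham replicate 2 or aged sham replicate 3. *Ccl4* had 3 reads in aged sham replicate 2, so its level there rests on few reads.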
